A study of Homo sapiens with 3 samples.

Results

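DUSP1, DUSP5, DUSP8, ERRFI1 and HBEGF encode a ligand and feedback inhibitors of epidermal growth factor receptor (EGFR) and MAP kinase signalling, and their transcripts were followed in LNCaP cells after bufalin. The 5 genes were taken by name from 8661 genes that could be named on the arrays, and each was represented by 1 probe among the 10952 that had a gene name, of 47323 on the array. They were chosen by their signals on these same arrays, where they stood above vehicle, so their height against vehicle describes them and supports nothing further. LNCaP cells are a long-established human line from a prostate cancer metastasis in a lymph node, and bufalin is a toad venom steroid that inhibits the sodium pump. Cells received ethanol as vehicle, bufalin at 10 nM or bufalin at 20 nM, each for 24 h in medium with fetal bovine serum, and RNA was hybridised to Illumina bead arrays. There was 1 array per treatment and no replicate, so no test between treatments was possible and no standard deviation over samples can be given.

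EGFR is a receptor tyrosine kinase that, once bound by ligand, signals through RAS and RAF to the MAP kinase ERK, while stress signals run to the MAP kinases JNK and p38. Signalling induces its own brakes: dual-specificity phosphatases (DUSPs) remove the activating phosphates from MAP kinases, and ERRFI1 binds the kinase domain of the activated receptor. HBEGF works in the other direction, as a membrane-anchored growth factor that is shed and then binds EGFR and ERBB4.

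The 250 bases before the transcription start are shown for the members with an entry in the RefSeq promoter table (GRCh38.p14). DUSP5 has no entry there. DUSP1 is a classical cyclic AMP-responsive gene. A link between any motif and the bufalin values was not tested. All 4 sequences are from the minus strand and are written 5′ to 3′, ending at the base before the start. Capitals mark matches to TGACGTCA (the cyclic AMP response element), to TGACG (its shorter form, which lies within TGACGTCA on each strand) and to TATAAA, on either strand.
DUSP1, chr5:172771196-172771445: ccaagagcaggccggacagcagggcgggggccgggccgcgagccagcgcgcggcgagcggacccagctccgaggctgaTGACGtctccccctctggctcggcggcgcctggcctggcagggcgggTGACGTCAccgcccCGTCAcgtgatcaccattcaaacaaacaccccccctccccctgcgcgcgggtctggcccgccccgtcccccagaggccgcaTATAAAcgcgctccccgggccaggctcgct
DUSP8, chr11:1572272-1572521: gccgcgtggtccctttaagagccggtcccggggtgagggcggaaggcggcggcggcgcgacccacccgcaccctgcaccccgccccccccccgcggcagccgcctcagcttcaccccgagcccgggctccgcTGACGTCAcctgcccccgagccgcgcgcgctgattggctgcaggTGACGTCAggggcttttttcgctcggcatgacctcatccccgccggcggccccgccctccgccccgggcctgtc
ERRFI1, chr1:8026310-8026559: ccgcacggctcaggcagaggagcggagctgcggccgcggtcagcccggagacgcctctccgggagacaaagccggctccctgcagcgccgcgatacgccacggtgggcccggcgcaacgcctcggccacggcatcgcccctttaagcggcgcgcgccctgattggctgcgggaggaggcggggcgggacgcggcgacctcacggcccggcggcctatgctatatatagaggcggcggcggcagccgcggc
HBEGF, chr5:140346604-140346853: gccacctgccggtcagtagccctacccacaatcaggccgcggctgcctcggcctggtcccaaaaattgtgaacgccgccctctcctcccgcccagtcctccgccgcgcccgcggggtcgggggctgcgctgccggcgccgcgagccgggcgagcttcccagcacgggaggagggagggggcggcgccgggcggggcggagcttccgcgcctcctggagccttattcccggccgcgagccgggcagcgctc

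The DUSP1 window held TGACGTCA at 1 place, beginning 125 bases before the start, and TATAAA beginning 30 bases before it. The DUSP8 window held TGACGTCA at 2 places, beginning 118 and 74 bases before the start, and TATAAA did not occur there. Each of these windows held the shorter TGACG at 4 places, counting those inside the longer motif. In the ERRFI1 and HBEGF windows none of these motifs occurred. No window held TGANTCA (AP-1), GCGTGGGCG (EGR) or a CArG box (serum response factor). Of 27305 promoter windows of the same length, TGACGTCA occurred in 1.77%, TGACG in 21.7%, TATAAA in 11.1%, TGANTCA in 6.60%, GCGTGGGCG in 0.71% and the CArG box in 1.14%. The 4 windows were rich in G and C, from 74.4% to 76.8% against a median of 58.0% over all windows. A match is a string of letters and not a measured binding site.

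On the vehicle array all 5 transcripts were detected, that is, their detection p-value was below 0.01. ERRFI1 (619) and DUSP1 (529) gave the brightest deposited signals. DUSP5, DUSP8 and HBEGF gave 191, 159 and 147, closer to the fitted background mean of 112.9. Signals of different probes depend on the probe as well as on the transcript, so they are not an order of abundance. Across the 3 arrays, 14612 to 14735 probes were detected, and the fitted background mean lay between 112.9 and 115.8. In bulk RNA, more expressing cells and more RNA per cell cannot be told apart for any value below.

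**Figure D1:**
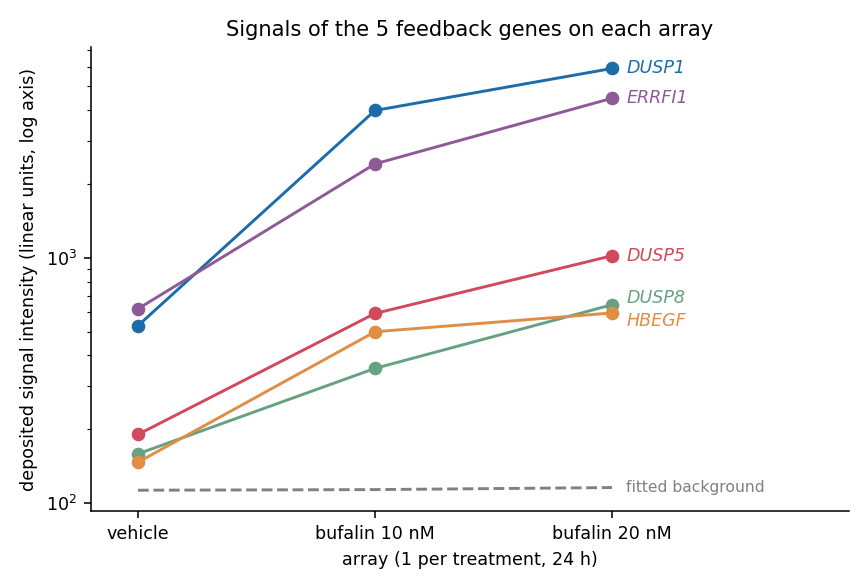
Deposited signal intensity (log axis) of the 5 genes on the vehicle, 10 nM and 20 nM arrays, 1 array each, with the fitted background mean as a dashed line. All 5 lines climb at each step, and DUSP1 and HBEGF climb least between 10 and 20 nM.

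HBEGF is the growth factor of the group. Its signal was 147 with vehicle, 499 at 10 nM and 596 at 20 nM. Both bufalin arrays therefore stood well above vehicle and close to each other. After background correction and quantile normalization the log2 fold change was 3.03 at 10 nM (8.18-fold) and 3.37 at 20 nM (10.4-fold). The step between the doses was 0.34. Probes of the same gene differed by a pooled standard deviation of 0.29 in that comparison, over 1578 genes, so the step is about as large as the spread between probes. That spread is between probes on the same arrays and not between cultures. HBEGF was dim on the vehicle array, and its fold rests on the background removed: without background correction the log2 values were 1.75 and 2.03.

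DUSP1 encodes a nuclear phosphatase that is induced within minutes of stress or growth factor and acts on p38, JNK and ERK. Its signal was 529 with vehicle, 3983 at 10 nM and 5906 at 20 nM. Except with an offset of 1 in place of 16, which put HBEGF first, it had the largest fold of the 5 at each dose against vehicle, with log2 fold changes of 3.16 (8.94-fold) and 3.66 (12.7-fold). At 20 nM its probe read 23.5% of the highest signal on the array, well short of the top of the range. The step from 10 to 20 nM was 0.50. Its probe was bright throughout, and the other processing settings that could change it gave 3.39 to 3.75 at 20 nM.

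DUSP5 encodes a nuclear phosphatase that dephosphorylates ERK and not JNK or p38. Its signal was 191 with vehicle, 593 at 10 nM and 1019 at 20 nM. Each dose stood above the one before it. The log2 fold change was 2.42 at 10 nM (5.36-fold) and 3.32 at 20 nM (10.00-fold), with a step of 0.90 between the doses. Without background correction these log2 values against vehicle were 1.63 and 2.41.

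DUSP8 encodes a phosphatase that prefers JNK and p38. Its signal was 159 with vehicle, 354 at 10 nM and 644 at 20 nM. It had the lowest fold of the 5 at 10 nM, except with an offset of 1, and the largest step between the doses, except in the unnormalized signals; in both cases ERRFI1 took its place. The log2 fold change was 2.05 at 10 nM (4.15-fold) and 3.19 at 20 nM (9.12-fold), a step of 1.13 between the doses (2.20-fold). Without background correction the 3 values were 1.14, 2.03 and 0.89, so the last value then fell short of 2-fold.

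ERRFI1, also called MIG6, encodes the receptor-level inhibitor that blocks EGFR family kinases and promotes their removal from the surface. Its signal was 619 with vehicle, 2413 at 10 nM and 4466 at 20 nM. The 20 nM array read highest and vehicle lowest. The log2 fold change was 2.14 at 10 nM (4.42-fold) and 2.98 at 20 nM (7.87-fold), a step of 0.83 between the doses. Its 20 nM value lay between 2.76 and 3.06 under all settings tried.

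At 10 nM all 5 members exceeded vehicle at least 2-fold, as did 6.41% of 8233 detected named genes. At 20 nM all 5 did again, as did 14.7% of 8346. These contrasts chose the members, so nothing is read from these counts. The named genes had passed the submitters' own selection for a difference from vehicle. Over all 15756 and 16112 detected probes, named or not, the shares were 4.98% and 12.3%. The median log2 fold change of the members was 2.42 at 10 nM and 3.32 at 20 nM, against -0.04 and -0.10 over all detected named genes. At 10 nM the members ranked from 13 (DUSP1) to 68 (DUSP8) from the top, and at 20 nM from 18 (DUSP1) to 48 (ERRFI1).

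**Figure D2:**
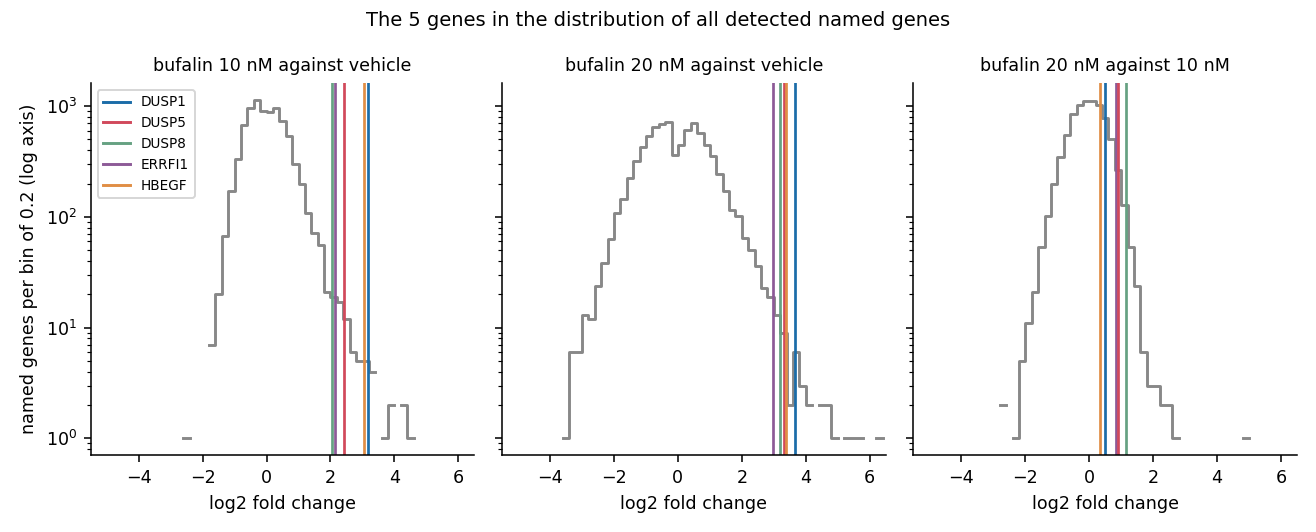
Distribution of log2 fold changes over all detected named genes (grey, number of genes per bin on a log axis) in each comparison, with coloured lines at the 5 genes. Against vehicle the lines lie in the upper tail, at 2.05 to 3.16 for 10 nM and 2.98 to 3.66 for 20 nM. Between the doses they run from 0.34 to 1.13, with 1.55% of the genes above DUSP8, 4.08% above DUSP5, 5.25% above ERRFI1, 16.3% above DUSP1 and 25.2% above HBEGF.

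The 5 genes differed in how much of their 20 nM displacement was already present at 10 nM. Both contrasts use the same vehicle array and the members were chosen with both known, so these shares are descriptions, also beside other genes. At 10 nM, HBEGF had 89.9% of its 20 nM log2 fold change and DUSP1 86.3%. DUSP5 had 72.9%, ERRFI1 72.0% and DUSP8 64.4%. Over the 9 settings, some of which cannot change a member, HBEGF ranged from 86.3% to 91.1%, DUSP1 from 83.7% to 86.4% and DUSP8 from 56.0% to 66.8%. The first 2 genes stayed above DUSP8 in each setting. Among 970 named genes past 2-fold on the higher side at 20 nM and detected on both arrays, the median share was 58.2% and the quartiles were 45.0% and 72.5%.

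Between the doses only DUSP8 was at least 2-fold higher at 20 nM, where 2.72% of 8195 detected named genes were. Over those genes 223 were higher and 395 lower, or 168 and 510 under median scaling. The members' median step was 0.83, against -0.03 over those genes. The members were chosen with the signals of both bufalin arrays known. Their steps and places among those genes therefore describe them, and nothing further is read from them. DUSP8 had 1.55% of the genes above it and DUSP5 4.08%, whereas DUSP1 had 16.3% and HBEGF 25.2%. Measured in the pooled spread between probes of a gene, the step was 3.95 standard deviations for DUSP8, 3.13 for DUSP5, 2.90 for ERRFI1, 1.75 for DUSP1 and 1.19 for HBEGF.

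**Figure D3:**
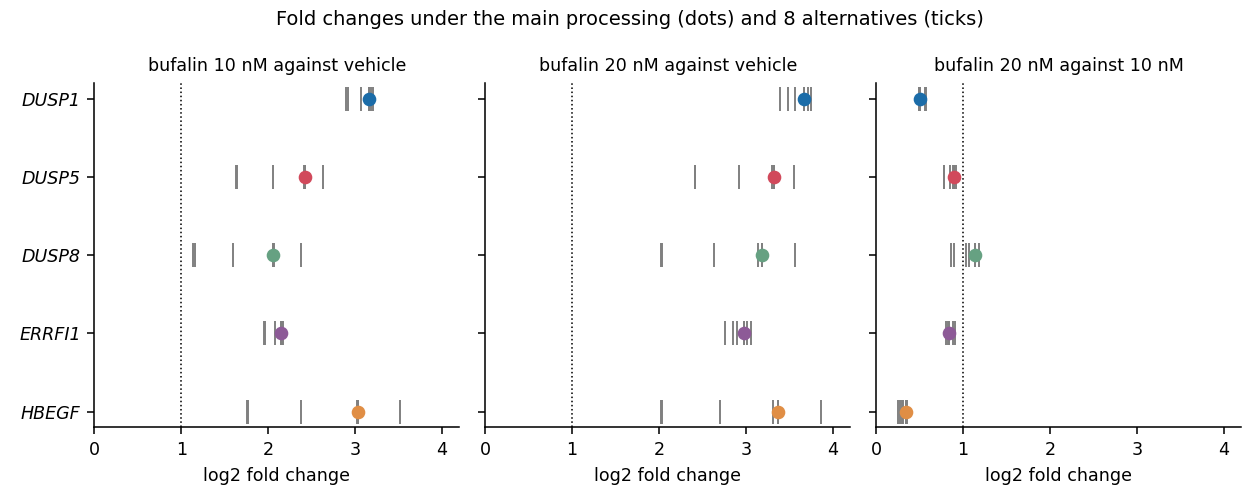
Log2 fold changes of the 5 genes in the 3 comparisons under the main processing (dots) and under 8 alternatives (grey ticks), with the 2-fold line dotted. Every value against vehicle lies to the right of the 2-fold line, the dim probes of DUSP5, DUSP8 and HBEGF move most, and between the doses only DUSP8 reaches the line.

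The nearest profiles to each member were sought among 7497 named genes detected on both bufalin arrays, by Euclidean distance between the 3 log2 values after each gene's own mean was removed. With 3 arrays many genes can lie close together. DUSP1 lay nearest to ELF3, an epithelial ETS factor gene (distance 0.07), to the keratin gene KRT80 (0.14) and to HBEGF (0.21). HBEGF lay nearest to KRT80 (0.20), DUSP1 (0.21) and TSC22D3 (0.22), the gene of the glucocorticoid-induced leucine zipper. The nearest genes to DUSP5 were TRIP10 (0.02), YPEL5 (0.07) and SIPA1L2 (0.14). TRIP10 was not detected on the vehicle array.

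DUSP8 lay nearest to the guanylate-binding protein gene GBP1 (0.09), the Krüppel-like factor gene KLF4 (0.11) and ANKRD1 (0.12), and the last 2 were not detected with vehicle. ERRFI1 lay nearest to KLHL28 (0.10), the pseudokinase gene TRIB1 (0.11) and the ephrin ligand gene EFNA1 (0.11). Within the 5 members, the closest pairs were DUSP1 with HBEGF at 0.21 and DUSP8 with ERRFI1 at 0.22. The farthest pair was DUSP1 with DUSP8 at 0.78.

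The rest of the pathway was described from 9 lists of ligands, receptors, phosphatases, inhibitors, kinases and output genes, of which 48 of 85 genes other than the members could be named. Past 2-fold at 10 nM were 4 of 43 detected genes on the higher side and 0 on the lower side, and the median log2 fold change was 0.19. Past it at 20 nM were 17 of 45 on the higher side and 5 on the lower side, and the median was 0.77. Between the doses 3 of 45 passed on the higher side and 0 on the lower side. The share of all detected named genes on the lower side was 3.24% at 10 nM and 16.6% at 20 nM, and 4.82% in the comparison of the doses, beside the shares on the higher side given above. Without background correction the 20 nM counts were 4 higher and 2 lower.

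**Figure D4:**
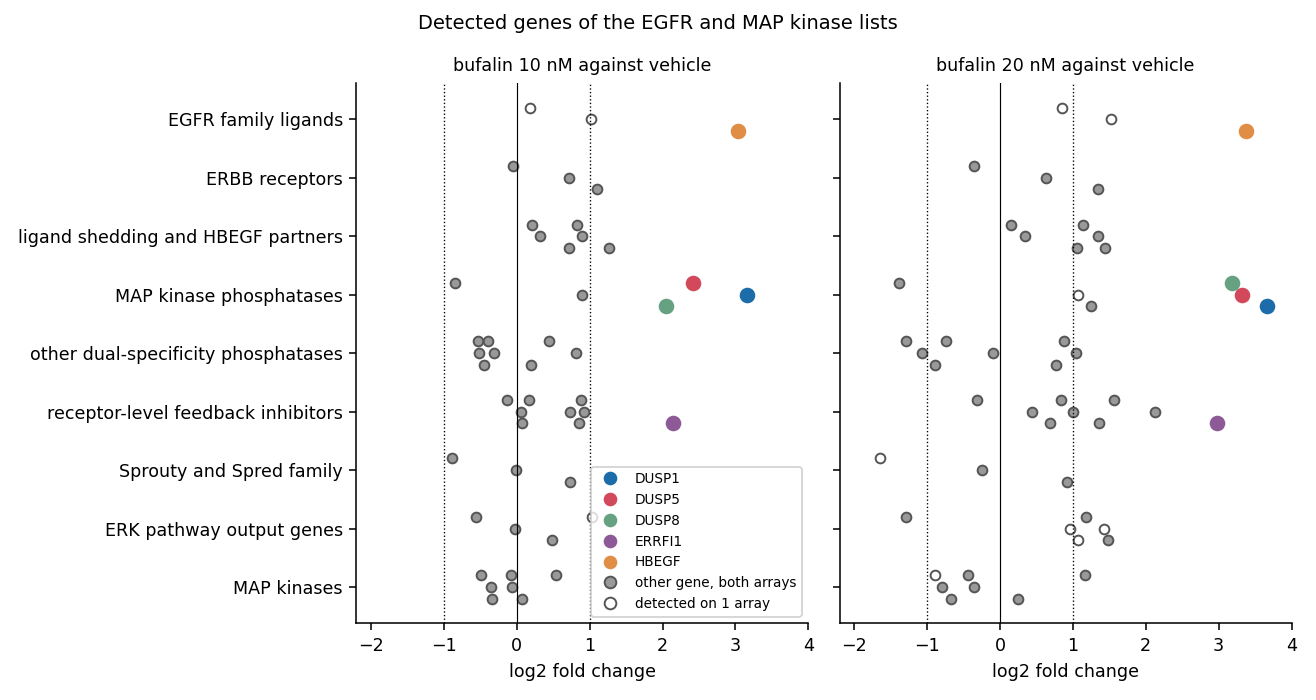
Log2 fold change of every detected gene of the 9 lists at 10 nM (left) and 20 nM (right) against vehicle, with coloured dots for the 5 members, grey dots for other genes and open dots for genes detected on 1 array of the pair. DUSP4 appears in 2 lists. In each panel the members lie to the right of the other genes, which at 20 nM end at 2.13.

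Among the MAP kinase phosphatases, the 3 members stood far from the other detected ones, which was how they were chosen. DUSP2, which encodes a nuclear phosphatase known best from lymphocytes, gave signals of 377, 256 and 200 with vehicle, 10 nM and 20 nM. It went down at each step, to a log2 fold change of -1.39 at 20 nM. DUSP16, whose product acts on JNK and p38, gave 229, 344 and 396, and its log2 fold change was 1.25 at 20 nM. DUSP4, a nuclear ERK phosphatase gene, was not detected with vehicle or at 10 nM and was at least 1.11-fold higher at 20 nM. DUSP10 was not detected on any array. Of the phosphatases listed, DUSP6, DUSP7 and DUSP9 are not among the named genes.

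The other dual-specificity phosphatases, which mostly act on other substrates, had members on both sides. Among 8 detected at 20 nM, 1 passed 2-fold upwards, 2 passed it downwards and 5 passed neither way. Over all detected named genes 14.7% passed upwards and 16.6% downwards, so nothing is read from these counts. The median of the 8 was -0.42. DUSP23 gave signals of 1135, 839 and 524 and a 20 nM log2 fold change of -1.29. DUSP22, a regulator of JNK signalling, stood at -1.07 by its brighter probe and at -0.87 by the other. DUSP19 gave 1504, 2075 and 3129, a log2 fold change of 1.04. DUSP12 was at -0.88. At 10 nM 0 of the 8 passed 2-fold, beside 6.41% upwards and 3.24% downwards over all detected named genes. Nothing is read from that count either.

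Of the EGFR family ligands, 3 of 11 were named and detected. Besides HBEGF they were TGFA and EGF, both undetected with vehicle. TGFA, the transforming growth factor alpha gene, gave 136, 177 and 204 by its brighter probe. By that probe it was at least 1.87-fold higher at 10 nM and at least 2.67-fold higher at 20 nM. The other TGFA probe, undetected on at least 1 array, gave log2 fold changes of 0.43 and 1.09. EGF gave 134, 139 and 161 and was at least 1.58-fold higher at 20 nM. EREG was named but not detected.

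Of the 4 receptor genes, 3 were named and detected, and 1 passed 2-fold upwards at each dose. Over all detected named genes 6.41% did so at 10 nM and 14.7% at 20 nM. EGFR gave signals of 163, 239 and 258, with log2 fold changes of 1.10 at 10 nM and 1.35 at 20 nM by its brighter probe and 0.65 and 1.06 by the other. ERBB2, the co-receptor without a ligand of its own, stood at 0.71 and 0.63. ERBB3, which signals through its partners, gave 1239, 1229 and 1020, or -0.06 and -0.36, while its dimmer probe gave 0.18 and 0.98. The ERBB3 probes therefore disagreed in sign at 20 nM.

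Release of the ligand from the membrane needs sheddases and their partners. Among 6 detected genes of that list at 20 nM, 4 passed 2-fold upwards, 0 downwards and 2 neither way, beside 14.7% upwards and 16.6% downwards over all detected named genes. Their median was 1.10. RHBDF1, an inactive rhomboid that controls the sheddase, gave 769, 1739 and 1975, a 20 nM log2 fold change of 1.45. ADAM10 stood at 1.35, ADAM9 at 1.15 and ADAM17, the main sheddase of HBEGF, at 1.06. The second ADAM10 probe gave 0.82, and the other ADAM17 probes, each undetected on at least 1 array, gave 0.52 and -0.76. CD9, a tetraspanin that associates with the HBEGF precursor, stood at 0.35 and RHBDF2 at 0.15, or at 0.75 by its dimmer probe.

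The receptor-level inhibitors held ERRFI1 and 8 other detected genes. Among all 9 at 20 nM, read by the brightest probe, 5 passed 2-fold upwards, 0 downwards and 4 neither way. Without ERRFI1, which was chosen for its height, 4 of 8 passed upwards. Over all detected named genes 14.7% passed upwards and 16.6% downwards. CBL, a ubiquitin ligase gene for activated EGFR, gave 145, 188 and 295, a 20 nM log2 fold change of 2.13, but its other probe gave 0.78. SOCS5 stood at 1.57, RNF41, a ligase gene for ERBB3, at 1.36, and LRIG1, the median of the list, was 2.01-fold higher. The second LRIG1 probe gave a log2 fold change of 0.98, short of 2-fold. PTPN2 stood at -0.31 at 20 nM by its brighter probe. Its other probe, undetected on at least 1 array, passed 2-fold downwards, with -1.17 at 10 nM and -1.27 at 20 nM. SOCS4 stood at 0.17 and 0.43 at the 2 doses by its brighter probe and at -0.59 and -0.32 by the other. At 10 nM only ERRFI1 of the 9 passed 2-fold by the brightest probe. Over all detected named genes 6.41% passed upwards and 3.24% downwards there.

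Of the Sprouty and Spred genes, which encode further inhibitors of ERK signalling, 3 of 7 were named and detected. At 20 nM 0 passed 2-fold upwards and 1 downwards, beside 14.7% and 16.6% over all detected named genes. SPRY1 stood at -0.02 at 10 nM and -0.24 at 20 nM. SPRED1 gave 201, 154 and 131, was not detected at 20 nM and was at least 2.44-fold lower there. SPRED2 gave 174, 225 and 237 and stood at 0.73 at 10 nM and 0.92 at 20 nM, so it read higher at each dose. The other 4 listed genes of this family are not among the named genes.

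Genes often read as output of ERK went both ways at 20 nM. Of 13 listed, 6 were named and detected, and the others are not among the named genes. Of the 6, 4 passed 2-fold upwards, 1 downwards and 1 neither way, beside 14.7% upwards and 16.6% downwards over all detected named genes. Their median was 1.13. The 4 include DUSP4 and IER3, which were undetected with vehicle and are counted by value. For DUSP4 the bound was only 1.11-fold. PHLDA1 gave 155, 179 and 252, a log2 fold change of 1.48. EGR1, an immediate early factor gene, gave 146, 145 and 203, so that it was near vehicle at 10 nM (-0.03) and at 1.18 at 20 nM. IER3 was at least 2.27-fold higher. CCND1, the cyclin D1 gene, gave 2798, 1998 and 1235 and stood at -1.29.

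The MAP kinase list holds the kinases that these phosphatases act on and their relatives. Of 7 detected, 0 passed 2-fold at 10 nM and 1 at 20 nM, with medians of -0.08 and -0.44, against -0.04 and -0.10 over all detected named genes. That gene was MAPK6, an atypical MAP kinase gene, which gave 1721, 2518 and 4001, a log2 fold change of 1.17. Over all detected named genes 6.41% passed upwards and 3.24% downwards at 10 nM, and 14.7% and 16.6% at 20 nM. Nothing is read from these counts. MAPK3, which encodes ERK1, stood at -0.08 at 10 nM and -0.67 at 20 nM, while its dimmer probe gave 0.50 and -0.38. At 20 nM MAPK9 stood at -0.36 and MAPK12 at -0.80. MAPK8, which encodes JNK1, was not detected at 20 nM and was at least 1.83-fold lower.

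Of 10 luminal prostate markers, 8 were named and all 8 were detected on the vehicle array, with KLK3, the prostate-specific antigen gene, at 252 and TMPRSS2 at 1492. At 20 nM 2 of the 8 passed 2-fold upwards and 2 downwards, beside 14.7% and 16.6% over all detected named genes. TMPRSS2 had a log2 fold change of 1.91 and FOLH1 of 1.09, or 0.89 by its dimmer probe. STEAP2 stood at -1.68, or -1.88 by its dimmer probe. KLK2 gave 294, 176 and 136, was not detected at 20 nM and was at least 4.70-fold lower there. KRT18 stood at -0.68, or -1.29 by its dimmer probe. Most markers of other cell types have no name here. Of 7 leukocyte markers 3 were named, of 8 stromal markers 2 and of 4 basal epithelial markers 0. CD14 gave 114, 134 and 214 and was detected at 20 nM only. HLA-DRA gave 278, 498 and 678, a 20 nM log2 fold change of 1.71, or 0.64 by its dimmer probe, undetected on at least 1 array. CD68 gave 304, 333 and 377, which was 0.49, short of 2-fold, while its other probe gave 1.43. All 3 stood higher than vehicle at 20 nM, as the members did. By value 2 of the 3 passed 2-fold upwards and 0 downwards, beside 14.7% and 16.6% over all detected named genes. ACTA2 gave 1257, 2047 and 1800 and VIM 421, 513 and 449. Their part in the members' values was not tested.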

How the data were processed

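LNCaP RNA from 3 treatments was measured on 3 bead arrays. The authors deposited signal intensities on a linear scale that are not normalized, per the file headers, for 47323 probes, and beside each intensity stands a deposited detection p-value. The submitters' processing notes name BeadStudio 3.0; the sources used here do not say whether it subtracted background. A smaller deposited table holds 13753 of these probes with equal intensity values, all 41259 of them, and only its probes could be matched to genes: 10952 had 1 symbol, 2 had several, and 10947 identifiers matched the RefSeq gene table (GRCh38.p14), giving 8661 genes. The other 36371 probes are unnamed here.

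Background was corrected by the normexp model from detection p-values with an offset of 16, followed by quantile normalization and log2 (limma 3.58.1, R 4.3.3), which understates the fold of dim genes. A gene was read from its brightest named probe and counted in a comparison when either array detected it (p-value below 0.01). Genes detected on 1 array are given as "at least" values, against the higher of the undetected value and the lowest detected value of that array, but enter counts by value. The threshold was 2-fold, with no test. The processing was run on simulated arrays with known folds, given only to probes well above background. It therefore does not cover vehicle signals as dim as those of HBEGF and DUSP8. Depth has no equivalent here, and the number of arrays limits the precision.

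The members and lists were chosen with earlier results of these data known. Genes named in the text were all members, up to 4 genes per list, by size of the 20 nM value, all detected MAP kinase phosphatases and EGFR family ligands and receptors, and the 3 nearest profiles per member. Other genes of the lists were named after their values were seen. 8 alternatives were tried.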

Additional observations from a re-analysis of the deposited data

How the results depend on the processing

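The 5 members remained at least 2-fold above vehicle at both doses in all 8 alternatives, and no value changed sign against vehicle. The looser detection threshold, the mean over probes and the bounds could not change a member. Each had 1 probe, detected on every array. Without background correction, or without normalization and background correction, 0 members were 2-fold higher at 20 nM than at 10 nM, against 1 in the main processing, and 0 other pathway genes were, as with an offset of 50, against 3. A pathway gene counted as lower between the doses 0 times in the main processing, 1 time under median scaling and 2 times with an offset of 1. The 10 nM count of 4 higher pathway genes was 2 with bounds for genes detected on 1 array or with the mean over probes, and 1 with an offset of 50 and in both settings without background correction. Over all detected named genes the bounds gave 461 higher at 10 nM and the mean over probes 494, against 528. The 10 nM count of lower pathway genes, 0, was 1 with an offset of 1. At 20 nM, 17 higher became 10 with an offset of 50 and 4 in both settings without background correction, where 5 lower became 2 and the median log2 fold change of 0.77 became 0.33, or 0.31 without normalization. Without background correction 551 of all named genes passed 2-fold upwards at 20 nM and 544 downwards, against 1224 and 1386. At 10 nM they were 194 and 43, against 528 and 267. Between the doses they were 39 and 76, against 223 and 395. Without normalization and background correction they were 556 and 539, 207 and 31, and 35 and 83. An offset of 50 gave 836 and 891 at 20 nM, 317 and 95 at 10 nM and 90 and 168 between the doses. An offset of 1 gave 764 and 503 at 10 nM, and 418 and 678 between the doses. The other offsets and the settings without background correction compress or stretch the folds of dim probes by construction. A value was taken as moved when it shifted by more than the pooled spread between probes. Of 120 member values under alternatives, 20 moved, all of them of the dim probes of DUSP5, DUSP8 and HBEGF against vehicle. The 120 include the values that could not change. Leaving out a replicate was not possible with 1 array per treatment. No paired analysis was possible because each treatment had a single array.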

Other observations

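On the vehicle array HBEGF exceeded 71.3% of all 47323 probes and DUSP8 73.9%, whereas ERRFI1 exceeded 91.1%. At 20 nM HBEGF exceeded 90.8% and DUSP1 98.7%. Taken straight from the deposited signals, with nothing subtracted, the 20 nM to vehicle ratio was 4.06 for HBEGF, 4.05 for DUSP8, 5.35 for DUSP5, 7.21 for ERRFI1 and 11.2 for DUSP1. In those ratios ERRFI1 was therefore second of the 5, while after background correction it was last with an offset of 16 or 1 and stood above DUSP8 and HBEGF with an offset of 50.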
